A study of Homo sapiens with 2 samples.

Results

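Intermediate-state cells of the KMT2D knockout are single C1-sgKMT2D cells whose RNA for an intermediate filament of mesenchymal cells and for 4 epithelial proteins was mixed. For each cell V was the share of VIM UMIs (unique transcript tags) among the UMIs of VIM, KRT5, KRT17, S100A14 and SFN, of which at least 10 had to be present. Cells with V above 0.4 and up to 0.75 were called intermediate, and 402 of the 2233 scored C1-sgKMT2D cells (18.0%; 95% Clopper-Pearson interval 16.4% to 19.7%) fell in that range, out of 8281 cells of the pool with 1 hashtag. They were set against 1079 cells below 0.3 (the epithelial end) and 410 cells above 0.85 (the mesenchymal end) of the same line. Another 342 cells lay in the gaps between the ranges, and 88 cells of the line had too few score UMIs to be placed.

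All cells derive from C1, a clone with epithelial traits taken from HMLER, which are human breast epithelial cells immortalised and made tumorigenic with RAS. C1-sgKMT2D and C1-sgEED cells had been edited to knock out KMT2D or EED, and C1-sgControl cells carried a control guide. Each line was marked with an oligo-tagged antibody and the pool was sequenced as 1 library of transcripts and 1 of hashtags on the 10x Genomics 3' platform, so every group below is a set of cells of 1 sample, no difference has a replicate check and no test was possible. The titles speak of mixed clones without a number per line, so a passing state of the cells and the make-up of clones cannot be told apart.

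Epithelial cells hold to their neighbours through cadherins and desmosomes and to the basement membrane through laminin-332 and integrin alpha-6 beta-4, and their cytoskeleton is built from keratins. In the epithelial-mesenchymal transition these genes are switched off, VIM, collagens and other matrix genes are switched on, and the repressors ZEB1, ZEB2, SNAI1 and SNAI2 bind E-box letters in promoters of epithelial genes. KMT2D methylates histone H3 at enhancers, and cells that stop partway through the transition are often described as a hybrid or partial state.

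The hashtag that assigned these cells to C1-sgKMT2D carried the 15-base barcode below, shown in full because the line of every cell rests on it.
Hashtag 4: AGTAAGTTCAGCGTA
Promoter windows of 3 genes are shown: AP1M2 and RAB25 were among the genes furthest below the epithelial end in intermediate cells and WFDC2 was above both ends. The 3 were picked by hand from several such genes, and matches in the others are not reported here. Whether the matches bear on these levels was not tested. The windows are RefSeq sequence on GRCh38.p14, at chr19:10587263-10587562 on the minus strand for AP1M2, chr1:156060910-156061209 on the plus strand for RAB25 and chr20:45469503-45469802 on the plus strand for WFDC2. Capitals mark the E-box CAGGTG or its reverse complement CACCTG, which do not overlap in these windows.
AP1M2: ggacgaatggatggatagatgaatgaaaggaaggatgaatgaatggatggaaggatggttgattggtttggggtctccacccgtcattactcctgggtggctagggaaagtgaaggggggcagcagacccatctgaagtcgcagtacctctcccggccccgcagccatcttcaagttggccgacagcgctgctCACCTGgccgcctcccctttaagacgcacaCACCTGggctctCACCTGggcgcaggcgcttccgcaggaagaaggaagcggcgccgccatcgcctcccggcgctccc
RAB25: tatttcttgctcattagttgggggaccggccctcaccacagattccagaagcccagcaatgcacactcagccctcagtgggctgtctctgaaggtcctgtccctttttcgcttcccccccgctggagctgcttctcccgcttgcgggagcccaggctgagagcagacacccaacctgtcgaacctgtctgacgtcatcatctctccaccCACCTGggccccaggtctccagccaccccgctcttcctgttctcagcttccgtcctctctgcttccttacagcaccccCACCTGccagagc
WFDC2: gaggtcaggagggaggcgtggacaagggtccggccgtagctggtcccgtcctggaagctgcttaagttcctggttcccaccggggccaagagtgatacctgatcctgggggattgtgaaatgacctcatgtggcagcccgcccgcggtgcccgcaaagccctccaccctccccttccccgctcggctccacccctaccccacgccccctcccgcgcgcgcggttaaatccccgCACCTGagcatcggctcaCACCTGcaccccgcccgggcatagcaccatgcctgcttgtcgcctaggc
The AP1M2 window held 3 matches, and the RAB25 and WFDC2 windows held 2 each. Of 35116 RefSeq windows of this length, 20.6% held at least 1 match on either strand, so a match is common and is given as a description only. Windows existed for 61 of the 94 genes far higher in the epithelial end (64.9%), too few for a share over those genes.

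Cells of the intermediate range were most frequent in C1-sgKMT2D among the 3 labelled lines. In the same range of V were 402 C1-sgKMT2D cells and 110 of 2274 C1-sgEED cells (4.84%; 3.99% to 5.80%), against 4 of 1702 C1-sgControl cells (0.235%; 0.0641% to 0.601%). C1-sgControl had 0 cells at the mesenchymal end, which allows a share of up to 0.176% (3 counts of 1702). V took no sharp step at the bounds: 46 C1-sgKMT2D cells lay within 0.05 above 0.4 and 62 within 0.05 below it, and 94 lay within 0.05 below 0.75 and 78 within 0.05 above it. Intermediate cells were shallower than epithelial-end cells, with medians of 5119 UMIs in intermediate, 6935 in epithelial-end and 4369 in mesenchymal-end cells. Their V rested on a median of 31 score UMIs, against 112 in epithelial-end and 26.5 in mesenchymal-end cells, so V was counted less precisely than at the epithelial end. The mitochondrial share was 8.53% in intermediate, 8.04% in epithelial-end and 8.28% in mesenchymal-end cells (medians).

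**Figure D1:**
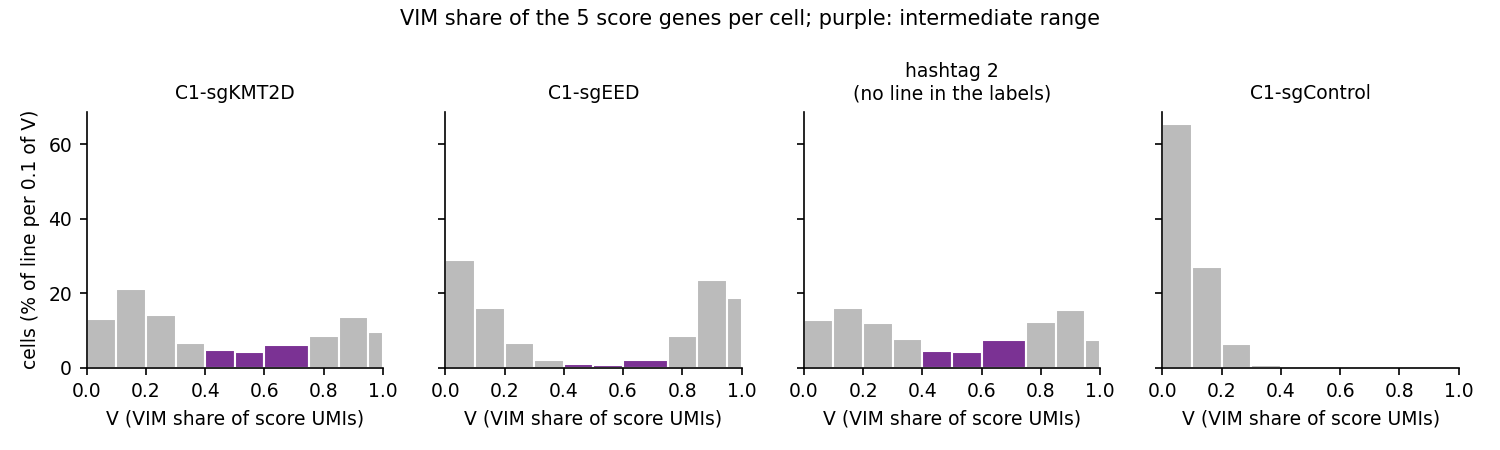
Share of the cells of each line (%, per 0.1 of V) by V, the VIM share of the 5 score genes, with the intermediate range in purple. C1-sgKMT2D filled the middle with 18.0% of its cells, C1-sgEED with 4.84% and C1-sgControl with 0.235%; hashtag 2 has no line in the labels.

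Barcodes that hold a pair of cells can mimic a middle state, and their measures stood as follows. Median hashtag 4 counts were 1868.5 UMIs in intermediate, 1599 in epithelial-end and 1374.5 in mesenchymal-end cells. From the 831 barcodes with several hashtags, 15.5 pairs of 1 epithelial-end and 1 mesenchymal-end C1-sgKMT2D cell were expected, or 3.86% of the intermediate cells. The sum of an average cell of each end had a V of 0.287, below the intermediate range. Measured pairs did reach the range: 28 of 152 scored barcodes with hashtags 3 and 4 lay in it, and 14 of 138 with hashtags 1 and 4. The part of pairs in the intermediate group was not tested. Scores from Scrublet, a doublet caller, reached the top 10% in 6.97% of intermediate, 8.25% of epithelial-end and 3.66% of mesenchymal-end cells, against 54.6% of barcodes with several hashtags. Without those cells the 6 genes above both ends still numbered 6. Markers of other cell types were close to absent: the 10 endothelial markers had 0 UMIs in intermediate cells, as had 14 of 15 immune and 5 of 11 neural markers. The summed levels in intermediate, epithelial-end and mesenchymal-end cells were 0, 0.659 and 1.54 CPM for the endothelial list, 16.5, 15.7 and 16.9 CPM for the immune list and 29.3, 47.2 and 31.8 CPM for the neural list.

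The score genes, which chose the cells, stood in intermediate cells at 4267 CPM (counts per 1e6 gene UMIs of the group) for VIM, against 2591 in epithelial-end and 5752 in mesenchymal-end cells. KRT17, a basal keratin, was at 1953 CPM in intermediate, 10083 in epithelial-end and 204 in mesenchymal-end cells. KRT5, the partner keratin of basal cells, was at 711 CPM in intermediate, 2587 in epithelial-end and 128 in mesenchymal-end cells. These values follow from the choice of cells and enter none of the counts below. KMT2D itself was read too thinly to check the knockout, at 6.40 CPM in intermediate, 5.01 in epithelial-end and 5.64 in mesenchymal-end cells, and reads at the 3' end of a transcript do not cover an edit elsewhere in it. EED, not the target in this line, was at 18.3, 14.8 and 18.5 CPM in the same order of groups.

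Compared with the epithelial end, the genes furthest below included KRT16, KRT6B, FXYD3, AP1M2 and RAB25, and those furthest above included COL3A1, TNFAIP6, CADM3 and DCN. Of 5111 genes at 20 CPM or more in either group, 295 (5.77%) were at least 1.5-fold higher and 365 (7.14%) at least 1.5-fold lower on log2(CPM + 1). Called here means past that fold, and the intervals cover counting error only. Among the keratins, KRT16, a keratin of activated epidermis, was at 54.0 CPM in intermediate and 406 CPM in epithelial-end cells, 7.52-fold lower (6.26 to 9.12). The basal keratin KRT14 was at 134 CPM in intermediate and 710 CPM in epithelial-end cells, 5.28-fold lower (4.70 to 5.96). KRT15 and KRT6B were 6.52-fold (5.15 to 8.36) and 7.54-fold lower (5.27 to 11.2). FXYD3, a regulator of the sodium pump, was at 39.3 CPM in intermediate and 277 CPM in epithelial-end cells, 7.05-fold lower (5.68 to 8.85). AP1M2, the epithelial clathrin adaptor subunit, was at 5.95 and 54.3 CPM in those groups, 9.13-fold lower (5.28 to 17.3). RAB25, a small GTPase of epithelial recycling endosomes, was at 11.9 and 83.0 CPM, 6.98-fold lower (4.72 to 10.8). The others among the 10 lowest were SFRP1, a secreted Wnt antagonist, the collagen prolyl hydroxylase P3H2, the phosphatase regulator PHACTR3 and AGR2, a protein disulfide isomerase of secretory epithelia, from 6.99-fold to 9.18-fold lower.

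On the mesenchymal side, COL3A1, a fibrillar collagen, was at 90.6 CPM in intermediate and 2.24 CPM in epithelial-end cells, 40.4-fold higher (24.6 to 70.8). A COL3A1 UMI was found in 14.2% of intermediate cells thinned to 2000 UMIs (10.9% to 18.1%), in 1 of 1052 epithelial-end cells and in 119 of 397 mesenchymal-end cells; the epithelial-end share is the level to read the others against, since free RNA in droplets adds UMIs to any cell. TNFAIP6, which binds hyaluronan in inflamed matrix, was at 105 CPM in intermediate and 2.90 CPM in epithelial-end cells, 36.3-fold higher (23.4 to 59.0). The adhesion molecule CADM3 was 41.2-fold higher (25.1 to 72.2), the matrix proteoglycan DCN 27.3-fold (18.4 to 42.0) and PTX3, a secreted pattern-recognition protein, 17.9-fold (11.7 to 28.4). IL1RL1, the receptor of interleukin-33, KYNU, an enzyme of tryptophan breakdown, COL6A3, a chain of collagen VI, and the oxygenase CYP1B1 were 49.7-fold, 24.8-fold, 23.5-fold and 16.5-fold higher. FABP4, a fatty acid carrier, completed the 10 highest, at 40.7 CPM in intermediate and 56.4 CPM in mesenchymal-end cells, but 12 intermediate cells held its UMIs and 5 of them held 87.6%; it had 0 UMIs in the epithelial end, and without its top cell it was at 22.9 CPM in intermediate and 44.8 CPM in mesenchymal-end cells.

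Compared with the mesenchymal end, the genes furthest above included ITGB4, LAMA3, TNS4 and KRT6A, and those furthest below included IFI44L, PAPPA and AKAP12. Of 5002 genes, 245 (4.9%) were at least 1.5-fold higher and 157 (3.14%) at least 1.5-fold lower in intermediate cells. LAMA3, the alpha chain of laminin-332, was at 71.8 CPM in intermediate and 15.4 CPM in mesenchymal-end cells, 4.67-fold higher (3.15 to 7.15). ITGB4, the beta subunit of its receptor, was at 79.6 CPM in intermediate and 14.4 CPM in mesenchymal-end cells, 5.55-fold higher (3.71 to 8.59). TNS4, a tensin that binds integrin tails, was 7.54-fold higher (3.77 to 17.1) and KRT6A 5.24-fold (4.70 to 5.86). FGFBP1, which releases FGF from the matrix, SERPINB5, the epithelial serpin maspin, the scaffold FRMD4B and the vesicle protein MAL2 were also among the highest, at 4.19-fold to 5.33-fold. Lower in intermediate than in mesenchymal-end cells was IGFBP4, a carrier of insulin-like growth factors, at 151 and 341 CPM, 2.25-fold lower (1.97 to 2.58). TNFAIP6 was 2.31-fold lower (1.97 to 2.72) and AKAP12, a scaffold for protein kinase A, 2.40-fold lower (1.82 to 3.18). PAPPA, a protease that cleaves IGFBP4, was 2.80-fold lower (1.72 to 4.70). IFI44L, an interferon-induced gene, was 3.88-fold lower (2.06 to 7.84) at 13 and 45 UMIs, GAS1, a growth-arrest membrane protein, and C11orf96 were 2.42-fold and 2.59-fold lower, and the Mediator subunit MED16 and the tRNA-processing enzyme TRNT1 2.63-fold and 2.51-fold.

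Grouped by list, intermediate cells stood between the ends on both sides of the transition. Of 7716 genes at 10 CPM or more in any of the 3 groups, 7.98% were higher and 7.81% lower than in the epithelial end, and 8.19% higher and 4.64% lower than in the mesenchymal end. Of 52 epithelial genes measured, 0 were higher and 47 lower than in the epithelial end (median log2 ratio -1.73, against 0.00 over the 7716 genes), and 43 were higher and 0 lower than in the mesenchymal end (median 1.31, against 0.03). EPCAM, an epithelial adhesion molecule, was at 19.7 CPM in intermediate, 115 in epithelial-end and 1.54 in mesenchymal-end cells. CDH1, the epithelial cadherin, was at 4.57, 24.1 and 3.08 CPM in the same order, already 5.27-fold below the epithelial end (2.80 to 11.2). Of 50 mesenchymal genes, 35 were higher and 1 lower than in the epithelial end (median 1.17), and 4 were higher and 14 lower than in the mesenchymal end (median -0.27). The single lower gene, TIMP3, an inhibitor of matrix proteases, was at 26.1 CPM in intermediate, 61.0 in epithelial-end and 19.0 in mesenchymal-end cells. FN1, fibronectin, was at 2279 CPM in intermediate, 1400 in epithelial-end and 2750 in mesenchymal-end cells. CD44, a hyaluronan receptor often used to mark transition states, was flat at 428, 424 and 461 CPM. Of the 20 laminin and integrin genes, 0 were higher and 9 lower than in the epithelial end and 7 higher and 1 lower than in the mesenchymal end. A partial-transition list of 39 genes had 5 higher and 11 lower than the epithelial end and 10 higher and 4 lower than the mesenchymal end, with medians of -0.09 and 0.16.

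The transcription factors divided. ZEB1 was at 20.1 CPM in intermediate and 1.19 CPM in epithelial-end cells, 17.0-fold higher (8.17 to 39.5), with 44 UMIs in intermediate and 39 in mesenchymal-end cells, a ratio of 1.01 (0.639 to 1.59). ZEB2 was at 23.8 CPM in intermediate, 2.90 in epithelial-end and 33.8 in mesenchymal-end cells. FOXC2, a forkhead factor of mesenchyme, was at 38.9, 10.5 and 49.7 CPM in the same order, and TWIST1 at 33.8, 14.5 and 55.4 CPM. SNAI2, also expressed by basal epithelial cells, went the other way, at 48.9 CPM in intermediate, 110 in epithelial-end and 32.3 in mesenchymal-end cells. TP63, the master factor of basal epithelium, had 5 UMIs in intermediate cells (2.29 CPM) and was at 15.8 CPM in epithelial-end and 0.513 CPM in mesenchymal-end cells. Of 15 transition factors measured, 5 were higher and 2 lower than in the epithelial end (median -0.08), and 2 higher and 3 lower than in the mesenchymal end (median -0.07). Of 12 epithelial factors, 0 were higher and 6 lower than in the epithelial end (median -0.82), and 4 higher and 1 lower than in the mesenchymal end (median 0.35). Over all genes 7.98% were higher and 7.81% lower than in the epithelial end, and 8.19% higher and 4.64% lower than in the mesenchymal end.

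Cytokine and NF-kB genes were intermediate too, with IL6, SAA1 and SAA2 close to or above the mesenchymal level. Of 27 measured, 19 were higher and 4 lower than in the epithelial end (median 0.89), and 5 higher and 5 lower than in the mesenchymal end (median -0.30). Over all genes 7.98% were higher and 7.81% lower than in the epithelial end, and 8.19% higher and 4.64% lower than in the mesenchymal end. The neutrophil chemokine CXCL8 was at 151 CPM in intermediate, 26.2 in epithelial-end and 284 in mesenchymal-end cells, and CXCL1 at 268, 38.0 and 470 CPM. SOD2, the mitochondrial superoxide dismutase, was at 1037 CPM in intermediate, 189 in epithelial-end and 1504 in mesenchymal-end cells. IL6 was at 32.5 CPM in intermediate and 2.37 CPM in epithelial-end cells, and at 36.4 CPM in mesenchymal-end cells its ratio was 0.892 (0.633 to 1.26). IL18, made by epithelia as a precursor for the inflammasome, was at 137 CPM in intermediate, 251 in epithelial-end and 43.1 in mesenchymal-end cells. The acute-phase genes SAA1 and SAA2 were at 277 and 70.0 CPM in intermediate cells, 84.5 and 9.49 CPM in epithelial-end cells and 233 and 58.4 CPM in mesenchymal-end cells. SAA1 and SAA2, CXCL1 and its neighbours, KRT6A and KRT6B, KRT14, KRT16 and KRT17, and the metallothioneins have close copies whose reads the counting could split, so their single levels are uncertain.

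Each gene's place between the ends was taken as its position, 0 at the epithelial-end CPM and 1 at the mesenchymal-end CPM, for 154 genes at least 3-fold apart. The 94 genes higher in the epithelial end had a median position of 0.762 (quartiles 0.692 to 0.824), and the 60 higher in the mesenchymal end one of 0.586 (0.473 to 0.725). This order belongs to the linear CPM scale. With positions taken on log2(CPM + 1), a scale added after the data had been seen, it turned round, to a median of 0.52 for the 94 genes and 0.79 for the 60, so no side can be said to lie nearer to the mesenchymal end without naming the scale. The 6 keratins with a linear position lay at 0.93 (KRT6B), 0.91 (KRT15), 0.90 (KRT16), 0.87 (KRT14), 0.84 (KRT81) and 0.80 (KRT6A), and FXYD3 and AP1M2 both at 0.92. Genes of the hemidesmosome and of the laminin it binds were spread, at 0.86 for COL17A1, a collagen that spans the membrane, 0.81 for LAMA3, 0.80 for LAMB3, 0.71 for ITGB4 and 0.70 for ITGA6. Secreted epithelial products were spread as well, at 0.90 for SFRP1, 0.78 for FGFBP1, 0.60 for SLPI, a protease inhibitor, and 0.55 for IL18. Among mesenchymal genes with a low linear position, AKAP12 had 0.31, IGFBP4 0.41, TNFAIP6 0.43, COL3A1 0.45 and PTX3 0.49. At or near the mesenchymal level were CYP1B1 at 0.92, CADM3 at 0.95, the proteoglycan VCAN at 0.97, CTGF, a matricellular target of YAP, at 1.03, HES4, a transcriptional repressor of the HES family, at 1.20 (0.99 to 1.45) and SAA2 at 1.24 (1.02 to 1.48). These intervals hold the ends fixed and cover the counting error of intermediate cells only, so they are too narrow. SAA2 had 153 UMIs in intermediate and 114 in mesenchymal-end cells, and the 5 richest intermediate cells held 40.5% of the 153.

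**Figure D2:**
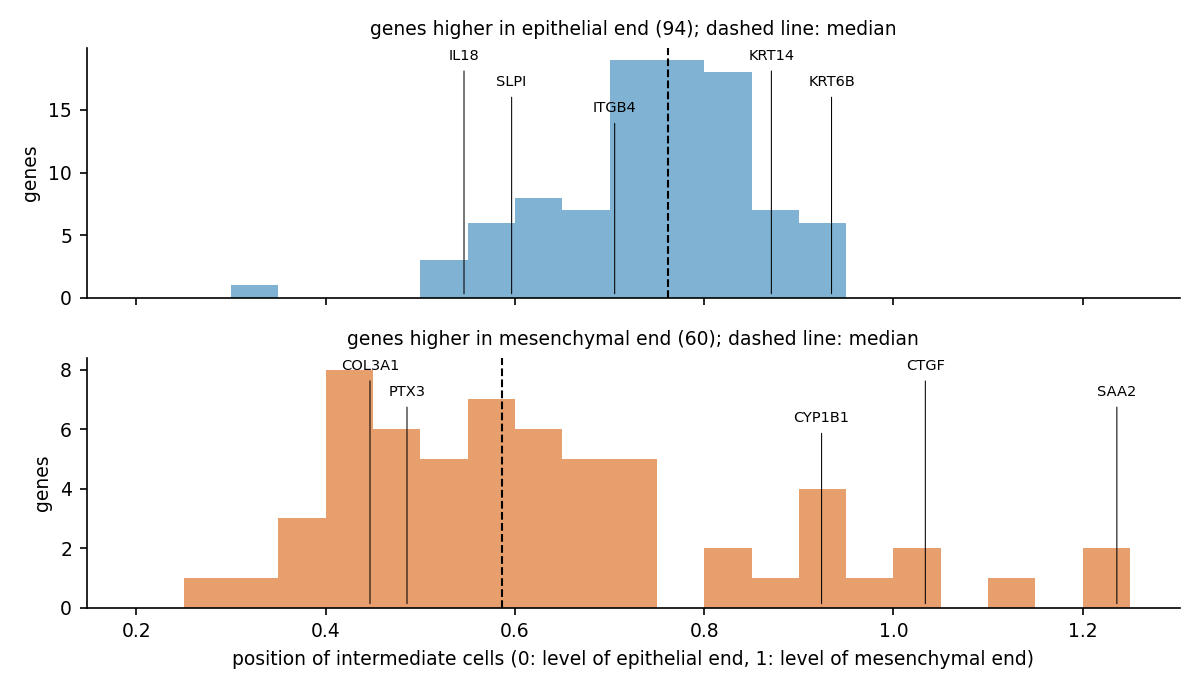
Number of genes by position of intermediate cells on the linear CPM scale between the epithelial end (0) and the mesenchymal end (1), for 94 genes higher in the epithelial end (top) and 60 higher in the mesenchymal end (bottom), with medians of 0.762 and 0.586 as dashed lines and selected genes marked. The lower panel is broader and runs past 1 for 5 genes; on the log2 scale the order of the medians turns round, to 0.52 and 0.79.

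Intermediate cells were also set against mixtures of the ends. The share m of mesenchymal-end RNA that best fitted the summed counts was 0.635 (95% likelihood interval 0.6325 to 0.6385). Of 2399 genes at 50 CPM or more in intermediate cells or in the mixture, 32 (1.33%) were at least 1.5-fold away from it, 14 above and 18 below. Most of the 2399 genes differed little between the ends and would fit any share: of the 394 at least 1.5-fold apart, 28 were off the mixture (7.11%), and of the 100 at least 3-fold apart, 20 (20%). The lower ones were led by KRT16, at 54.0 CPM in intermediate cells against 158 CPM in the mixture (log2 -1.54), FXYD3 (-1.49), KRT15 (-1.38) and KRT14 (-1.10). With them were LAMA3 (-0.79), the desmosomal genes PERP (-0.74) and DSP (-0.59) and the mesenchymal AKAP12 (-0.71). The upper ones were led by ISG15 (1.40), EFEMP1 (1.14), GDF15 (0.91), WFDC2 (0.89) and SERPINA1 (0.85). CDKN1A, the cell-cycle inhibitor p21, was at 170 CPM in intermediate cells against 107 CPM in the mixture, DDB2, a sensor of damaged DNA, at 62.2 against 37.5 CPM and CITED2, a CBP/p300-binding co-regulator, at 128 against 77.0 CPM.

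A mixture cannot lie above both its parts, and 6 of 2280 genes (0.263%) at 50 CPM or more in intermediate cells were at least 1.5-fold above both ends. EFEMP1, an extracellular matrix fibulin (GRCh38 chromosome 2, 55865967 to 55924139, minus strand, protein coding), was at 123 CPM in intermediate, 32.2 in epithelial-end and 68.2 in mesenchymal-end cells. It was 3.81-fold (3.19 to 4.55) and 1.80-fold (1.46 to 2.23) higher than in the epithelial and mesenchymal ends, and was found in 163 of the 402 cells. GDF15, a stress-induced member of the TGF-beta family (chromosome 19, 18374731 to 18389176, plus strand), was at 126 CPM in intermediate, 67.4 in epithelial-end and 66.6 in mesenchymal-end cells, 1.87-fold (1.61 to 2.17) and 1.89-fold (1.53 to 2.35) higher. Its UMIs lay in 56 intermediate cells, and the 5 richest held 34.4% of them. SERPINA1, alpha-1 antitrypsin (chromosome 14, 94376747 to 94390693, minus strand), was at 98.3 CPM in intermediate, 45.1 in epithelial-end and 59.5 in mesenchymal-end cells. WFDC2, a secreted whey acidic protein family member (chromosome 20, 45469706 to 45481532, plus strand), was at 84.6, 33.7 and 51.8 CPM in the same order. GPM6B, a membrane proteolipid (chromosome X, 13771031 to 13938638, minus strand), was at 104, 52.5 and 66.6 CPM, and was found in 150 of the 402 cells. ISG15, an interferon-induced ubiquitin-like protein (chromosome 1, 1001138 to 1014540, plus strand), was at 95.6, 27.4 and 40.5 CPM, but 1 intermediate cell held 114 of its 209 UMIs. Without the richest cell of each group ISG15 was at 43.7 CPM in intermediate, 24.8 in epithelial-end and 31.8 in mesenchymal-end cells, and no longer passed 1.5-fold over the mesenchymal end (log2 0.44) while the other 5 genes did. Under other settings GDF15, SERPINA1, WFDC2 and GPM6B each fell short of 1.5-fold over the mesenchymal end once (log2 0.52, 0.51, 0.47 and 0.55). EFEMP1 did not in the 10 alternatives that recomputed its ratios. No gene of 1989 (0%) was 1.5-fold below both ends at 50 CPM or more in each end. The nearest was HMGA1, a chromatin architectural protein, at 104 CPM in intermediate, 167 in epithelial-end and 150 in mesenchymal-end cells, a log2 ratio of -0.52 over the mesenchymal end.

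**Figure D3:**
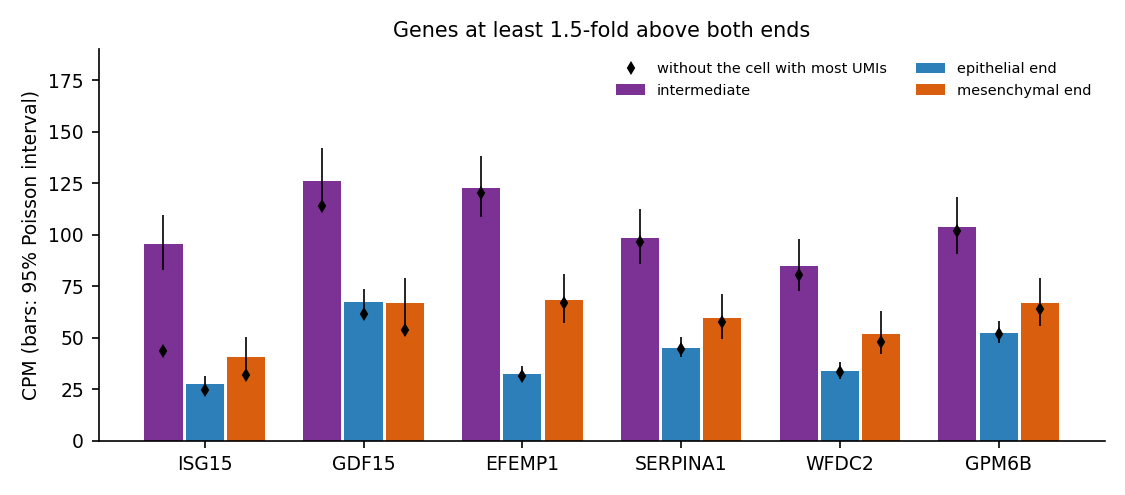
Levels (CPM, 95% Poisson intervals) in intermediate, epithelial-end and mesenchymal-end cells of the 6 genes at least 1.5-fold above both ends. Black diamonds leave out the cell with most UMIs of the gene in each group; the ISG15 diamond of intermediate cells drops to 43.7 CPM.

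The choice of these genes fixed that they were high somewhere in the range, and finer bins of V show where. EFEMP1 was at 113, 104 and 138 CPM in cells with V of 0.4 to 0.5, 0.5 to 0.6 and 0.6 to 0.75, and between 27.5 and 45.2 CPM in the 4 bins below. Above the range it was at 93.6 CPM at 0.75 to 0.85, and at 68.2 and 68.0 CPM in the last bins. SERPINA1 peaked at 120 CPM (100.3 to 144) at V of 0.6 to 0.75. It was at 35.0 CPM (20.7 to 55.2) above 0.95 and at 40.8 CPM (32.3 to 50.7) in the lowest bin, with overlapping intervals. WFDC2 peaked at 107 CPM (88.0 to 129) at V of 0.6 to 0.75 and was at 23.3 CPM (12.0 to 40.7) above 0.95. GDF15 was at 40.4 CPM at 0.4 to 0.5, 141 CPM at 0.5 to 0.6 and 170 CPM at 0.6 to 0.75, so the low part of the range did not share its high level. Its UMIs lay in 15 of 106, 15 of 95 and 26 of 201 cells of those bins, so this contrast rests on few cells. The mesenchymal genes took several courses. IGFBP4 was at 97.0 CPM at V of 0.4 to 0.5 and 204 CPM at 0.6 to 0.75, and reached 419 CPM above 0.95. CADM3 was at 133 CPM at 0.6 to 0.75 and 69.9 CPM above 0.95, and CTGF at 109 and 66.0 CPM in those bins. Among epithelial genes KRT16 was at 842 CPM in the lowest bin and 305 CPM in the next, while ITGB4 was at 225 and 234 CPM there, 214 CPM at 0.3 to 0.4, 115 CPM at 0.4 to 0.5 and 42.4 CPM at 0.6 to 0.75. Median depth ran from 5432.5 UMIs at 0.4 to 0.5 to 4967 UMIs at 0.6 to 0.75, and its part in these courses was not tested.

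**Figure D4:**
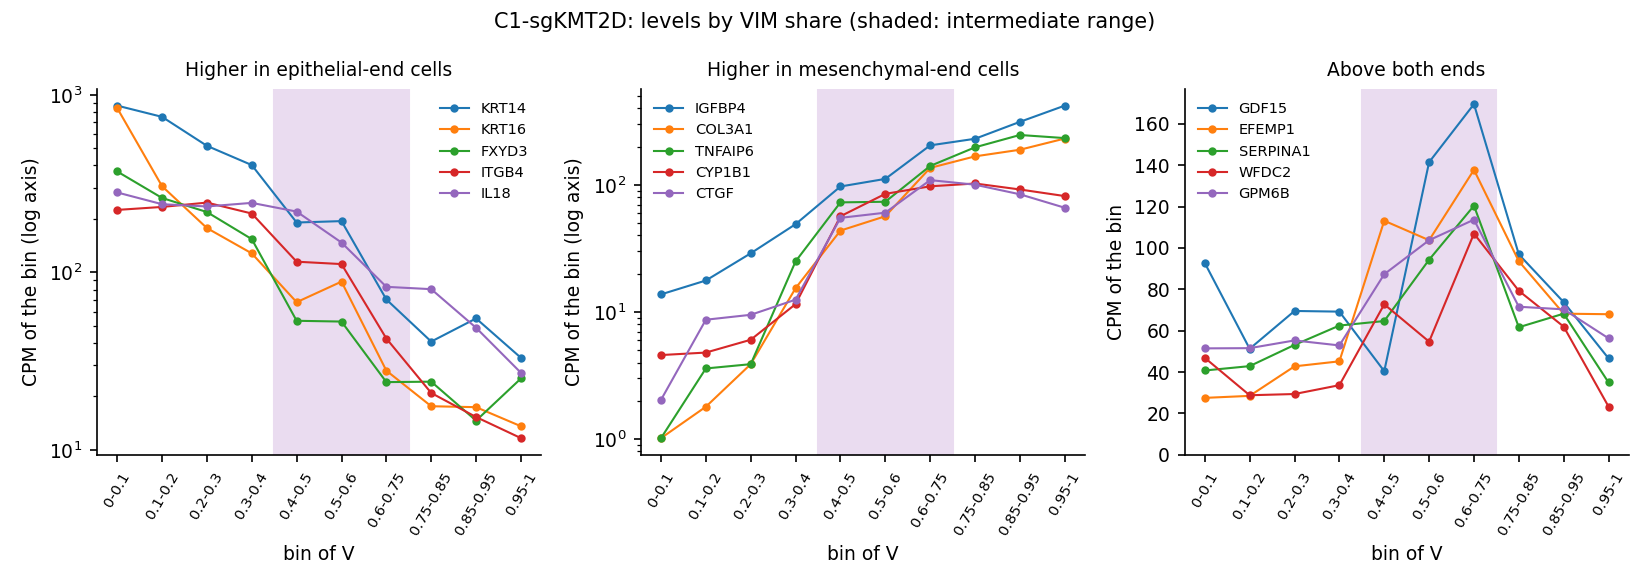
CPM of selected genes in C1-sgKMT2D cells by bin of V, with the intermediate range shaded and log axes in the left and middle panels. KRT16 was lower from bin to bin at low V, ITGB4 was high up to the shaded range, and the genes of the right panel peaked at V of 0.6 to 0.75.

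Proliferation genes differed within the range. The summed G2/M list (54 genes) was at 6932 CPM (6726 to 7142) at V of 0.4 to 0.5, 6673 CPM at 0.5 to 0.6 and 4108 CPM (3985 to 4233) at 0.6 to 0.75. It was at 2796 CPM in the lowest bin of V and at 5149 CPM at 0.75 to 0.85, so the upper part of the intermediate range was low against both of its neighbours. MKI67, the proliferation antigen Ki-67, was at 352 CPM at 0.4 to 0.5, 191 CPM at 0.6 to 0.75 and 253 CPM at 0.75 to 0.85. HMGA1 had the same low point, 78.0 CPM (62.0 to 97.0) at 0.6 to 0.75, against 136 CPM at 0.4 to 0.5 and 127 CPM at 0.75 to 0.85. Over the whole range, 5 of 54 G2/M genes were higher and 0 lower than in the epithelial end (median 0.37), a share close to the 7.98% of all genes, and 1 was higher and 0 lower than in the mesenchymal end (median 0.06). CDKN1A was at 170 CPM in intermediate, 146 in epithelial-end and 84.6 in mesenchymal-end cells. The metallothionein MT2A, a metal-binding stress protein, was at 9602 CPM in intermediate and 5786 CPM in mesenchymal-end cells, 1.66-fold higher (1.62 to 1.70), and 3 of 4 metallothioneins measured passed 1.5-fold in that comparison, against 8.19% of all genes. Over the epithelial end 0 of the 4 were higher (median -0.18). The summed list lay between the ends, at 11697 CPM in intermediate, 15129 in epithelial-end and 7142 in mesenchymal-end cells.

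Single cells did not spread evenly between the ends. A mixing share fitted to each cell over the 154 genes, added after the data had been seen, had a median of 0.90 in intermediate cells (quartiles 0.495 to 0.99), against 0.00 in epithelial-end and 1.00 in mesenchymal-end cells. The 154 genes had a median of 225 UMIs per intermediate cell. In the 402 cells FTH1, the ferritin heavy chain, held 52004 of these UMIs and S100A2 12511, so a few abundant genes made up much of the counts fitted. Of the 402 intermediate cells, 203 (50.5%) were at or above 0.9 and 52 (12.9%) below 0.1. In 92 cells (22.9%) the whole 95% interval lay between 0.1 and 0.9, against 118 epithelial-end cells (10.9%) and 25 mesenchymal-end cells (6.10%). The median was 0.59 for V of 0.4 to 0.5, 0.81 for 0.5 to 0.6 and 0.97 for 0.6 to 0.75, where 176 of 201 cells had an interval above 0.5. Along the first principal component of all C1-sgKMT2D cells, computed without the score genes, 71.6% of intermediate cells reached the central range of the mesenchymal end (its 5th percentile and above). Another 23.4% lay in that of the epithelial end (its 95th percentile and below), and 4.98% between the central ranges. The band between them was narrow, from -1.15 to 0.329, with medians of -4.54 at the epithelial and 7.15 at the mesenchymal end. A small share in it therefore does not show an empty middle. Clusters made without the score genes gave the same order: 237 intermediate cells (59.0%) shared the cluster of 324 mesenchymal-end cells (79.0%), and 35 (8.71%) that of 765 epithelial-end cells (70.9%). A cluster led by mitotic genes (PIF1, CCNA2 and HMMR) held 112 intermediate (27.9%), 263 epithelial-end (24.4%) and 82 mesenchymal-end cells (20%). The fourth cluster, with TREM2 and GDF15 among its leading genes, held 18 intermediate (4.48%), 34 epithelial-end (3.15%) and 3 mesenchymal-end cells (0.732%). The ends define these scales and the cells were part of the clustering, so the shares are descriptions.

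**Figure D5:**
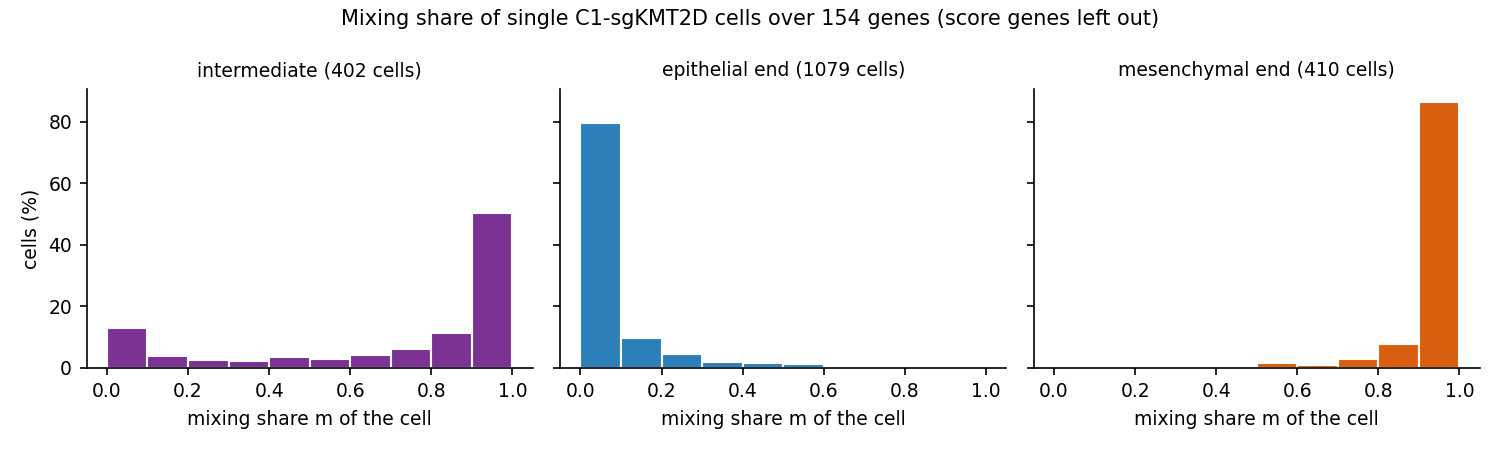
Share of cells (%) by mixing share m of each cell over 154 genes, from 0 (epithelial-end profile) to 1 (mesenchymal-end profile), in intermediate, epithelial-end and mesenchymal-end cells. Intermediate cells pile up at or above 0.9 (50.5%), with a smaller group below 0.1 (12.9%) and the rest between. Much of the counts fitted came from a few abundant genes, led by FTH1.

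A second score, built from 21 mesenchymal and 57 epithelial genes chosen on C1-sgEED cells, used no C1-sgKMT2D cell in its making. It summed UMIs, so abundant genes weighed more and it was not an even count over its genes. S100A2, on its epithelial side, was at 5722.4 CPM in intermediate, 17037.5 in epithelial-end and 1697.5 in mesenchymal-end cells. All score genes together had medians of 22, 66.5 and 16 UMIs per cell in the same order, in cells thinned to 2000 UMIs. The median score was 0.120 in intermediate (356 cells scored), 0.0145 in epithelial-end and 0.359 in mesenchymal-end cells. Within the range the median was 0.0488 at V of 0.4 to 0.5, 0.0824 at 0.5 to 0.6 and 0.200 at 0.6 to 0.75. The 95th percentile of the epithelial end (0.0526) lay above the 5th percentile of the mesenchymal end (0.0446), so no cell could be called between them by this score. The C1-sgEED cells in the same range of V, 110 in number, gave other levels for several genes. COL3A1 was at 219 CPM in these C1-sgEED cells, against 154 CPM in the mesenchymal end of that line, and WFDC2 was at 14.5 and 6.81 CPM, with 109 CPM in its epithelial end. EFEMP1 was at 246 CPM in C1-sgEED cells of the range, 48.6 in their epithelial end and 144 in their mesenchymal end, above both as in C1-sgKMT2D. The difference between the lines was not tested, since each is 1 sample.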

How the data were processed

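Hashtagged cells of the 3 lines were read in 1 pooled 10x library; the labels tie hashtags 1, 3 and 4 to lines, and cells of hashtag 2 enter no comparison. The deposited matrix holds UMI counts, made by the authors with Cell Ranger 3.0.2 on GRCh38, per the submitters' processing notes. A barcode was given to a line when its top hashtag had at least 150 UMIs and 10 times the next. At least 500 genes and at most 20% mitochondrial UMIs were required, met by 9193 of 10336 barcodes. Of these, 912 did not meet the hashtag rule and were dropped. A next hashtag of 150 UMIs or more was seen in 831 of the 9193, the barcodes with several hashtags used for the expected pairs. Scrublet's automatic threshold marked 0 barcodes and so did not work; pairs with the same hashtag were left in.

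UMIs were summed per range of V and scaled to CPM. The sums held 2186319 UMIs in intermediate, 7586982 in epithelial-end and 1951103 in mesenchymal-end cells. Log2 ratios used a pseudocount of 1 CPM, which pulls low genes towards 0. Intervals are 95% (exact Poisson, exact conditional binomial, Clopper-Pearson) and cover counting error only. The mixing share was fitted by maximum likelihood without score and mitochondrial genes; calls also left out genes known only by a clone name. Named genes are the 10 highest and 10 lowest ratios over each end at 20 CPM or more, the 10 furthest above and below both ends, list members at 10 CPM or more, the score genes, EED and KMT2D; genes named by position or by distance from the mixture were chosen after seeing their values. The members and lists were chosen with earlier results of these data known. Code was tested on simulated data. Coordinates came from GENCODE v29 (33132 of 33694 identifiers matched) and promoter windows from RefSeq. Tools were Python 3.11.15, scipy 1.17.1, scanpy 1.11.5 and edgeR 4.0.16 (TMM factors only). Alternatives changed cell filters, bounds, depth, scaling, pseudocount and floors. Some genes met by these rules are not reported here.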

Additional observations from a re-analysis of the deposited data

Results flagged for a closer look

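Cells of hashtag 2, to which the labels give no line, had a signal in data outside the comparisons: 377 of 1889 scored cells, or 19.96% (18.2% to 21.8%), lay in the intermediate range of V, against 4 of 1702 C1-sgControl cells (0.235%). In these cells EFEMP1 was at 11.7 CPM in the intermediate range, 17.2 in the epithelial end and 8.59 in the mesenchymal end, and WFDC2 at 1.60, 2.40 and 2.15 CPM. Levels of SERPINA1 were 107, 51.0 and 80.6 CPM in the same order.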

How the results depend on the processing

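Of the values recomputed, 0 that were past 1.5-fold changed sign under the alternatives run. Recomputed were the medians of part of the lists and the ratios of genes named by rank over 1 or both ends. Genes named only as list members, by position or by distance from the mixture were not recomputed singly. Of 140 list medians, 110 moved by under 0.1 on the log2 scale and 30 by more. Of 1180 ratios of the genes named by rank, 1082 stayed within their counting interval and 98 left it. The share of intermediate cells was 16.3% with at least 20 score UMIs and 11.7% with V of 0.45 to 0.7 and ends below 0.15 and above 0.95. The mixing share was 0.590 with at least 1000 genes and at most 10% mitochondrial UMIs, 0.623 with a 30-fold hashtag ratio, 0.587 with at least 20 score UMIs, 0.523 with the narrower bounds, 0.650 without the top 10% of Scrublet scores, 0.627 without ribosomal protein genes, 0.719 as the median position and 0.90 as the median over cells. The second score had a median of 0.0960 with at least 20 score UMIs. With the narrower bounds 467 genes were higher than in the epithelial end, 550 were higher and 499 lower than in the mesenchymal end, 20 were above both ends and 1 below both. With cells thinned to 2000 UMIs these comparisons called 539 higher and 612 lower, 535 higher and 403 lower, 20 above both and 6 below both. With 0.5 times the level floors they called 551 and 596, 534 and 349, 10 and 3; with 2 times the floors, 156 and 199, 98 and 62, and 3 above both. The mean of per-cell CPM put 1 gene below both ends. The cause of these shifts was not tested. Of the 6 genes above both ends, EFEMP1 kept its call under 13 of 13 alternatives, GDF15 and GPM6B lost it under 1, SERPINA1 and WFDC2 under 2 and ISG15 under 3: ISG15 and GPM6B in thinned cells (log2 0.24 and 0.55 over the mesenchymal end), GDF15 with at least 20 score UMIs (0.52), and SERPINA1 (0.51) and WFDC2 (0.47) with the stricter cell filter; ISG15, SERPINA1 and WFDC2 also lie under 2 times the floor, and ISG15 loses the call without its richest cell. The 13 include 0.5 and 2 times the level floors, which leave the ratios unchanged. The lower floor could remove no call, and the higher one none of EFEMP1, GDF15 and GPM6B, which lie above it. Those outcomes were thus fixed in advance. Leaving out Scrublet's own calls was not run, since it marked 0 barcodes. Leaving out Scrublet's top 10% of scores, the median over cells and the richest cell of each gene were chosen after seeing the data. No paired analysis was possible because all lines share 1 library and no result comes from a test across samples. Depth limits genes of low level: calls over each end used a floor of 20 CPM, and list counts one of 10 CPM.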

Other observations

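In the EGF receptor and ERK list, 1 of 22 genes measured was higher and 6 lower than in the epithelial end (median log2 ratio -0.08), against 7.98% higher and 7.81% lower over all genes. EGFR, the epidermal growth factor receptor, was at 60.4 CPM in intermediate, 125 in epithelial-end and 50.7 in mesenchymal-end cells, while its ligand EREG was at 220, 76.7 and 295 CPM in the same order. The ligands HBEGF and TGFA were at 10.1 and 5.95 CPM in intermediate cells and 28.9 and 17.8 CPM in epithelial-end cells. Outside that list, NDRG1, a stress-responsive differentiation gene, was at 97.0 CPM in intermediate, 343 in epithelial-end and 45.1 in mesenchymal-end cells. AKR1B1, an aldose reductase, was at 227, 91.7 and 405 CPM and FTH1, the ferritin heavy chain, at 23786, 10279 and 33790 CPM.

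Of 12 MHC class I genes, 3 were at least 1.5-fold higher in intermediate than in epithelial-end cells, against 7.98% of all genes, and 0 in either direction against mesenchymal-end cells; HLA-B was at 148 CPM in intermediate, 73.7 in epithelial-end and 166 in mesenchymal-end cells. Of 26 hypoxia and glycolysis genes, 1 was higher and 5 lower than in the epithelial end, against 7.98% and 7.81% of all genes; LDHA was at 1468, 1678 and 1437 CPM. Median log2 ratios by chromosome ran from -0.08 on chromosome 8 to 0.10 on chromosome X over the epithelial end.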
